A study of Mus musculus with 27 samples.

Results

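The middle of the liver lobule was compared between 8 dpc (dpc8, 8 days post-coitum) and the non-pregnant state (NP), in every gene with an FPKM (fragments scaled to transcript length in kilobases and to the library's mapped reads) of at least 1 in at least 3 of the 6 zone 2 libraries. The rule kept 11292 of the 21823 protein-coding genes in the table. The lobule was cut by laser microdissection into zone 1 around the portal vein, zone 3 around the central vein and the parenchymal zone 2 between them, and total RNA of each was sequenced after removal of ribosomal RNA. Both groups are wild-type female C57BL/6 mice (C57BL/6N in the study's methods), the NP group being virgin and neither group carrying an engineered allele or receiving a drug, and each group has 3 zone 2 libraries among the 27 of the series, which also holds zones 1 and 3 and 16 dpc (dpc16). The study's legends call the libraries independent experiments, and its methods state for all experiments that different mice were used. The labels do not tell whether the 3 libraries of a group came from separate mice. The p-values therefore measure the spread between libraries, which may be partly technical. A zone 2 library is bulk tissue and holds the RNA of hepatocytes, sinusoidal endothelium, stellate cells and resident macrophages together, so that fewer cells of a type and less RNA per cell cannot be told apart.

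Hepatocytes divide little in the resting adult liver. The liver of the pregnant mouse enlarges, and part of that growth is by division of hepatocytes. Position in the lobule also sets what a hepatocyte does, with gluconeogenesis and urea synthesis strongest near the portal vein and glutamine synthesis and much of drug oxidation near the central vein. Genes of the cell cycle, of hormone-dependent liver metabolism, of the zones and of the other cell types of the lobule are therefore taken in turn, each from a list of known members.

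Of the 11292 genes, 1 was higher at dpc8 (0.00886% of those tested) and 0 were lower (0%) by limma with Benjamini-Hochberg adjustment. The next lowest adjusted p was 0.206, that of A1bg, so every gene named here is given in zone 2 at dpc8 by its levels and not as a call. Before adjustment, a p under 0.05 was reached by 216 genes with a higher mean (1.91%) and 373 with a lower mean (3.30%). The 3 dpc8 values lay above all 3 NP values in 452 genes (4.003%) and below them in 689 (6.10%), and the median log2 fold change over all genes was -0.02. Fold changes are differences of log2(FPKM + 1), dpc8 minus NP, which understate the change of genes near 0. They are given with the standard error (SE) of the fit.

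There are 2 libraries that stand apart and touch many of the values. In dpc8 replicate 2 the summed FPKM of 15 smooth muscle genes was 5227, against 195 to 462 in the other 5 libraries, and that of 16 fibroblast and matrix genes was 3060 against 619 to 948. The sum of 11 hepatocyte genes was 48085 there and 65497 to 104823 in the others. The 4 Y-linked genes Ddx3y, Eif2s3y, Kdm5d and Uty, which female tissue lacks, summed to 16.1 FPKM in dpc8 replicate 2 and to between 0 and 2.24 in the other 5. Its correlation with the other libraries on the log2 scale was 0.849 to 0.897, while all other pairs reached 0.898 to 0.960. Without it, 958 genes had dpc8 values all above (8.48%) and 1203 all below (10.7%) the NP values, and 1 gene passed the adjusted test. NP replicate 3 had correlations of 0.898 to 0.916 with the 4 libraries other than dpc8 replicate 2, where the pairs among those 4 reached 0.931 to 0.960, and it had the lowest array weight of the 6, 0.427, followed by dpc8 replicate 2 with 0.530. Without NP replicate 3, 952 genes had dpc8 values all above (8.43%) and 1157 all below (10.2%) the NP values, and 1 gene passed. Hepatocyte RNA is plain in all 6 libraries, with albumin at 6.26 to 10.6% of the summed FPKM. The summed pericentral markers were 3820 to 6150 FPKM in NP and 2759 to 4701 in dpc8 zone 2, between zone 1 (459.8 to 732) and zone 3 (14061 to 19925). From the steps between low values, the depth of each library was estimated at 12650000 to 27050000 mapped reads.

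**Figure D1:**
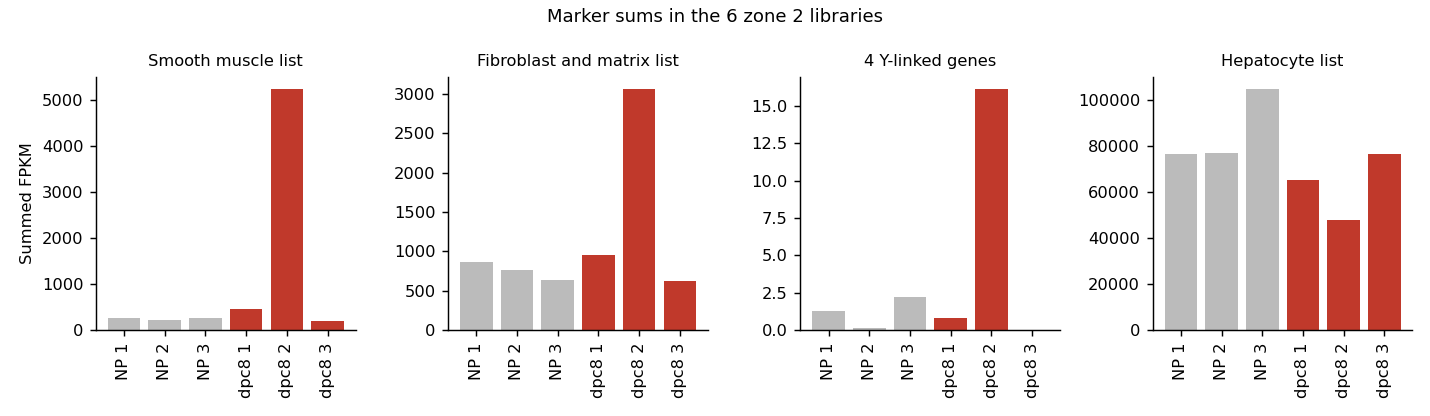
Summed FPKM (y axis) of 4 marker lists in each of the 3 NP (grey) and 3 dpc8 (red) zone 2 libraries. The bar of dpc8 replicate 2 reaches 5227 for smooth muscle, 3060 for matrix and 16.1 for Y-linked genes, and is the lowest of the 6 for hepatocyte genes.

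Genes of mitosis and the spindle were the list with the highest median among those of the cell cycle. Of its 30 members, 22 had 3 dpc8 values above all 3 NP values, and 0 had them all below, where 4.003% and 6.10% of all genes tested did. Of the 25 members tested, 23 had a fold change above 0, 8 at an unadjusted p under 0.05, and 0 passed the adjusted test. The median log2 fold change of the 25 was 1.181. It was 0.93 without dpc8 replicate 2, 1.23 without NP replicate 3 and 0.46, with 22 of 25 above 0, when the mean level of the smooth muscle and matrix genes entered the fit as a covariate. Kif11, Hmmr, Ckap2l and Cenpe passed the filter on low values through the dpc8 libraries alone, so the filter itself favours a difference in these 4. Cenpe was picked out after its values were seen.

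The promoters of the 4 members with the smallest p are printed because their levels differed in the same direction. The 150 bases before the transcription start are from RefSeq (GRCm38.p6), written 5′ to 3′ on the strand of the gene, with capitals on 2 motifs that cell cycle promoters are known to share, the CHR (TTTGAA, or TTCAAA on the other strand) and the CCAAT box (CCAAT, or ATTGG on the other strand). The windows are chr19:37376232-37376381 on the plus strand for Kif11, chr11:40733438-40733587 on the minus strand for Hmmr, chr2:129297213-129297362 on the minus strand for Ckap2l and chr2:118813853-118814002 on the plus strand for Knstrn.
Kif11: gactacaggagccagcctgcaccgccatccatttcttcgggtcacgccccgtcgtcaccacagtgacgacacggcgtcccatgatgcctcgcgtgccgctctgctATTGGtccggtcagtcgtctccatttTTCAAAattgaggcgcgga
Hmmr: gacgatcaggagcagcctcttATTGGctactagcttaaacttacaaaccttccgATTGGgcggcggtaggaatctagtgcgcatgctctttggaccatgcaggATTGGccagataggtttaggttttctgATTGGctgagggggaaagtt
Ckap2l: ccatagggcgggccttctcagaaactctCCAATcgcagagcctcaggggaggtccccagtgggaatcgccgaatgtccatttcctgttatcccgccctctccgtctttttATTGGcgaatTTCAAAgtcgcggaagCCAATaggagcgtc
Knstrn: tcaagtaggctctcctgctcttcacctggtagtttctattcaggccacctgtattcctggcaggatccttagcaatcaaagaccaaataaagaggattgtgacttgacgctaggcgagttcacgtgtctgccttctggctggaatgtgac
Kif11 and Ckap2l hold 1 CHR each, Hmmr holds 4 CCAAT boxes and no CHR, and Knstrn holds neither in this window. In the 250 bases before the start, 9 of the 22 mitosis genes with a RefSeq window hold a CHR (40.9%) and 18 a CCAAT box (81.8%), where the shares among the 8981 tested genes with a window are 13.1% and 40.7%. A match says only that these letters are there.

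Kif11 (ENSMUSG00000012443.4, chromosome 19, 37376403 to 37421859, mm10) is the motor that pushes the spindle poles apart. Its FPKM was 0.338, 0.332 and 0.154 in NP replicates 1 to 3 and 2.57, 2.71 and 1.77 in dpc8 replicates 1 to 3, a log2 fold change of 1.39 ± 0.40 (SE). All 3 dpc8 values lay above all 3 NP values, but the gene did not pass the test (limma adjusted p = 0.739). Hmmr (ENSMUSG00000020330.16, chromosome 11, 40701395 to 40733422), a microtubule and hyaluronan binding protein of the spindle, had 0.5, 0.785 and 0 in NP and 2.69, 3.91 and 2.26 in dpc8 libraries, a log2 fold change of 1.49 ± 0.48. Ckap2l, a protein of the spindle pole, had 0.192, 0.587 and 0 and 1.87, 3.45 and 1.79, and Knstrn, which helps chromosomes align, had 1.07, 2.87 and 0 and 8.35, 5.80 and 5.14. In each of these 4 genes the groups did not overlap.

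These levels are low, and 1 read over 1 kilobase is worth 0.037 to 0.079 FPKM in these libraries. Summed over the 30 mitosis genes, the FPKM was 37.9, 37.2 and 53.8 in NP replicates 1 to 3 and 111, 177 and 87.8 in dpc8 replicates 1 to 3. The highest sum is in the library with the muscle and Y-linked signal. The sums of dpc8 replicates 1 and 3, with Y-linked sums of 0.802 and 0, also lie above the 3 NP libraries. Replicate 1 also had more muscle RNA than NP. Its smooth muscle sum was 462, against 195 in dpc8 replicate 3 and 212 to 264 in NP. Elsewhere in the series, NP zone 3 replicate 2, with a Y-linked sum of 7.92, had a mitosis sum of 136 against 38.6 and 16.3 in the other 2 libraries of its group. In zone 1 at dpc8, replicate 1, with a Y-linked sum of 20.5, had a mitosis sum of 434. Replicates 2 and 3 there, with Y-linked sums of 2.81 and 0, still had 151 and 211, against 40.2 and 19.4 in NP zone 1 replicates 2 and 3. The part of that signal in the sums was not tested. With the muscle and matrix covariate the log2 fold changes were 1.05 for Kif11, 1.13 for Hmmr, 1.01 for Ckap2l, 1.5003 for Knstrn and 0.66 for Cenpe, against 1.31, 1.32, 1.19, 1.92 and 1.04 without the libraries with Y-linked signal.

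**Figure D2:**
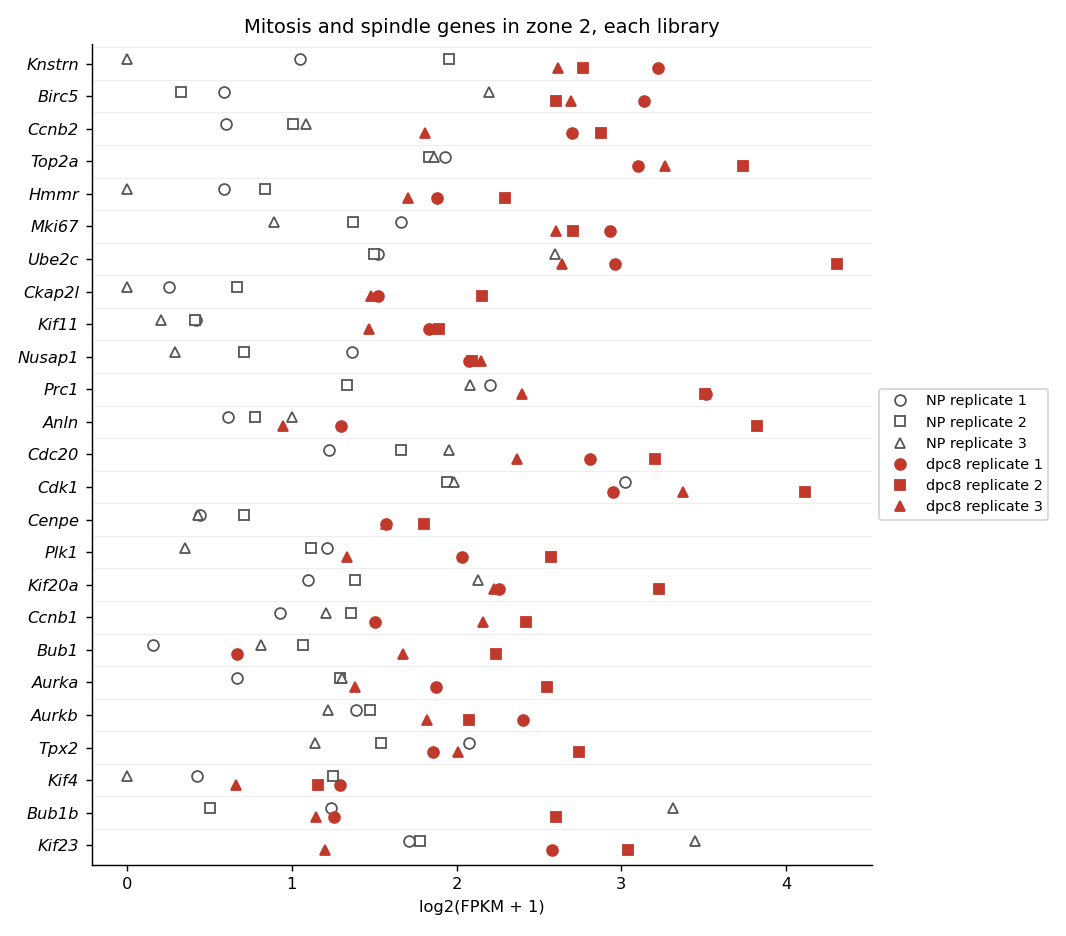
Level of the 25 tested mitosis and spindle genes, as log2(FPKM + 1) on the x axis, in each NP (open) and dpc8 (filled red) zone 2 library, with a marker shape per replicate and the genes ordered by fold change. In 18 genes the 3 red points lie to the right of all 3 open points, and in the lowest 2 rows NP replicate 3 is the highest of the 6.

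DNA replication genes had smaller fold changes. Of the 28 listed, 9 had non-overlapping groups with dpc8 above and 0 with dpc8 below, where 4.003% and 6.10% of all genes tested did. Among the 25 tested, 23 had a fold change above 0 with a median of 0.47, or 0.32 without dpc8 replicate 2, and 0 passed the adjusted test. Chaf1b (ENSMUSG00000022945.12, chromosome 16, 93883901 to 93906115), a subunit of the factor that loads histones onto new DNA, had 0.982, 1.0301 and 0.233 FPKM in NP and 4.52, 5.74 and 2.27 in dpc8 libraries, a log2 fold change of 1.54 ± 0.48. Tyms, which makes thymidylate, had 5.89, 8.62 and 5.502 and then 13.3, 9.43 and 18.0. Pcna, the sliding clamp of the replication polymerases, had 10.2, 9.19 and 3.71 and 13.2, 12.8 and 17.1, and Gins1, a part of the replicative helicase, had 2.25, 2.26 and 0.567 and 6.23, 1.88 and 4.65. The groups did not overlap in the first 3 of these genes, whereas in Gins1 dpc8 replicate 2 lay within the NP range. Hells, a chromatin remodeller of dividing cells, had 0.896, 0.465 and 0.591 in NP and 9.41, 7.67 and 2.31 in dpc8 libraries, which put it among the 12 largest differences upward. It passed the filter through the dpc8 libraries alone, which favours such a difference.

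Histone genes were also among those 12. Hist1h1a had 1.16, 2.84 and 2.34 FPKM in NP and 15.1, 14.4 and 7.53 in dpc8 libraries, Hist1h2bn 0.347, 3.19 and 0 and 12.1, 12.7 and 3.54, and Hist1h2ag 0, 0.225 and 0 and 1.86, 7.55 and 2.59. All 3 encode histones that are made as DNA is copied, and Hist1h2ag passed the filter through the dpc8 libraries alone. Their values are uncertain, because near-identical copies of these genes share reads and uniquely mapped reads were counted. The log2 fold changes were 2.09 ± 0.66, 2.39 ± 0.87 and 2.05 ± 0.67, with limma adjusted p-values of 0.827, 0.885 and 0.874.

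Regulators of G1 had fold changes on both sides of 0, 9 above and 5 below. The median over 14 tested members was 0.26, and 0.0018 without dpc8 replicate 2. Foxm1, the transcription factor of the genes of mitosis, had 0.402, 0.443 and 1.20 FPKM in NP and 2.41, 6.49 and 2.96 in dpc8 libraries, and Cdkn2c, an inhibitor of the G1 kinases, had 7.37, 6.43 and 2.53 and 7.92, 9.03 and 9.37. Both had non-overlapping groups, and they were the 2 of the 15 listed that did, beside 4.003% of all genes with dpc8 above and 6.10% with dpc8 below. With the covariate the fold change of Foxm1 went from 1.502 to 0.88. Myc had 1.84, 1.70 and 9.32 in NP and 12.1, 14.8 and 4.24 in dpc8 libraries, where 1 NP library lay within the dpc8 range. Rb1, which holds back entry into S phase, read 3.70, 4.35 and 29.4 in NP and 4.03, 4.45 and 4.28 in dpc8 libraries, and its lower mean rests on the single NP library at 29.4.

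A1bg (ENSMUSG00000022347.8, chromosome 15, 60896859 to 60923012), a secreted immunoglobulin-like protein that female mouse liver makes in excess of male liver, had the lowest adjusted p of the genes that did not pass. Its FPKM was 230.0, 387 and 319 in NP and 4411, 1151 and 2696 in dpc8 libraries. The lowest dpc8 library was above the highest NP library, and the log2 fold change was 2.97 ± 0.58 with a limma adjusted p of 0.206, or 3.49 without dpc8 replicate 2. The gene passed the test with quantile normalization (adjusted p = 0.0167), array weights (0.0231), the muscle and matrix covariate (0.0105) and without the libraries with Y-linked signal (0.0259).

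A1bg belongs to the liver genes that the sex-dependent pattern of growth hormone keeps higher in females. Of the 18 tested genes of that list, 14 had a fold change above 0, with a median of 0.57, or 0.80 without dpc8 replicate 2, against 48.1% of all genes tested. The groups did not overlap with dpc8 above in 3 and with dpc8 below in 1, beside 4.003% and 6.10% of all genes. Cyp3a44 (ENSMUSG00000054417.5, chromosome 5, 145773983 to 145805874), a steroid-oxidising cytochrome P450, had 69.4, 80.3 and 194 FPKM in NP and 461, 205 and 369.8 in dpc8 libraries, a log2 fold change of 1.66 ± 0.51. Acot3, a peroxisomal acyl-CoA thioesterase, had 164, 35.1 and 21.3 and 209, 129 and 193, and its NP replicate 1 lay within the dpc8 range. Cyp2b13 had the opposite sign, with 119, 95.5 and 97.1 in NP and 40.7, 27.8 and 65.4 in dpc8 libraries, and the groups did not overlap. The Cyp3a and Cyp2b genes have close paralogs, so reads may be split between them. In the list of male-biased genes, 8 of 12 tested had a fold change below 0, and the median of -0.16 became 0.08 without dpc8 replicate 2.

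Among the genes that pass on growth hormone and prolactin signals, Bcl6, a repressor that growth hormone lowers, had 7.69, 20.7 and 1.07 FPKM in NP and 1.84, 1.69 and 1.44 in dpc8 libraries, so that NP replicate 3 was the lowest of the 6. Socs2, a feedback inhibitor of the growth hormone receptor, had 9.54, 21.4 and 9.64 and 28.5, 15.1 and 25.0. Its sister Socs3 had 2.60, 4.004 and 2.01 in NP and 23.8, 4.11 and 5.32 in dpc8 libraries, without overlap but by a narrow margin in dpc8 replicate 2. Stat5a, which carries the signal to the nucleus, had 5.17, 9.97 and 7.29 and 4.51, 3.92 and 5.22. Of the 15 tested members of this list, 5 had fold changes above 0, or 7 without dpc8 replicate 2, and 0 passed the adjusted test. The medians were -0.13 and -0.06.

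The metallothioneins, small proteins that bind zinc and copper and that glucocorticoids and metals induce, were among the largest differences. Mt2 (ENSMUSG00000031762.7, chromosome 8, 94172664 to 94173568) had an FPKM of 459.6, 355 and 31.1 in NP and 2454, 762 and 1304 in dpc8 libraries, a log2 fold change of 2.95 ± 0.76 (limma adjusted p = 0.739). Mt1, its neighbour on chromosome 8 (ENSMUSG00000031765.8, chromosome 8, 94179082 to 94180327), had 510.5, 259 and 91.5 and 1619.6, 494 and 906, where NP replicate 1 was above dpc8 replicate 2. NP replicate 3 was the lowest of the 6 libraries for both genes, and without it the log2 fold changes were 1.73 for Mt2 and 1.30 for Mt1, against 2.95 and 1.96 with it. Of the 14 glucocorticoid targets listed, both metallothioneins included, 7 had fold changes above 0 and 7 below, with a median of 0.03, or of -0.02 without dpc8 replicate 2. Tsc22d3, a direct target of the glucocorticoid receptor, had 66.9, 37.9 and 60.0 in NP and 45.3, 28.2 and 21.9 in dpc8 libraries, and Tat, the tyrosine aminotransferase that the same receptor induces, had 1548, 684 and 753 and 847, 278 and 481.

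**Figure D3:**
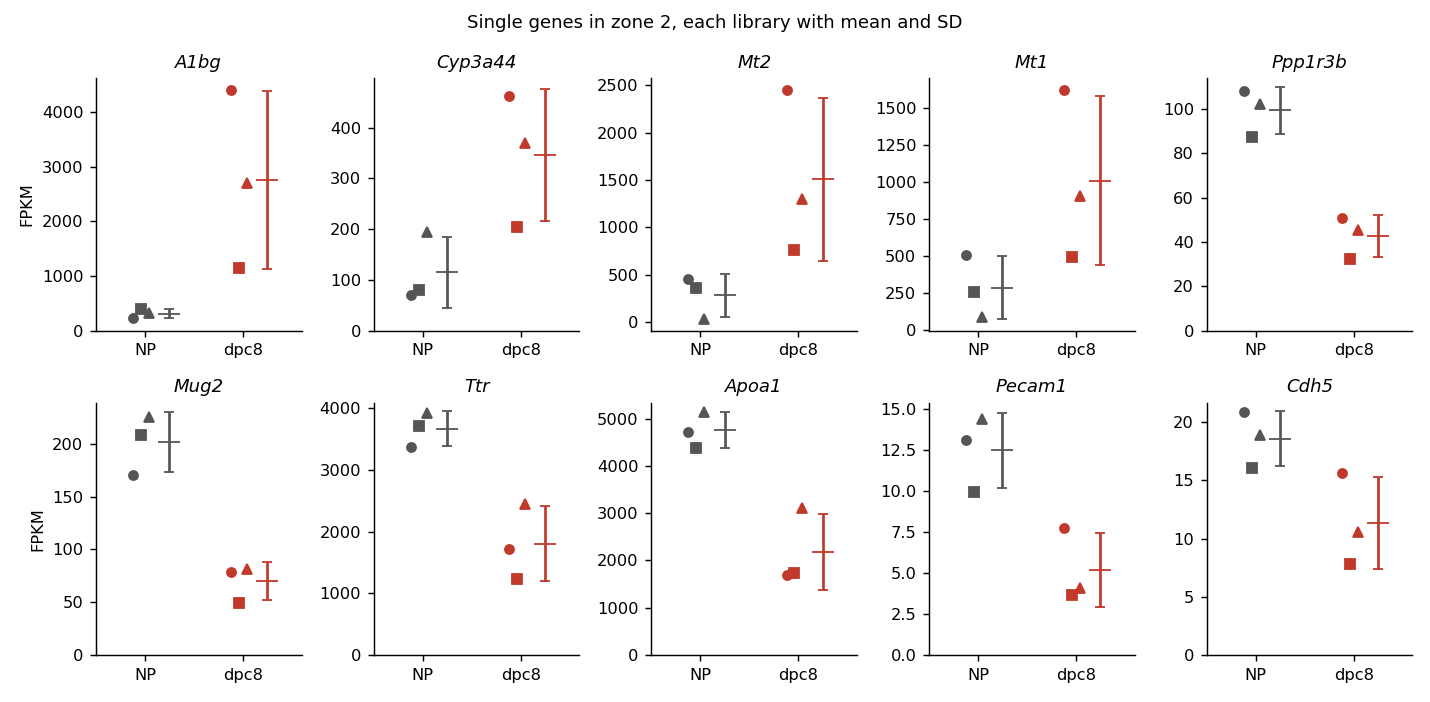
FPKM (y axis, from 0) of 10 genes in the 3 NP (grey) and 3 dpc8 (red) zone 2 libraries, with circle, square and triangle for replicates 1, 2 and 3 and with the mean and SD beside them (n = 3 each). The dpc8 points of A1bg, Cyp3a44 and Mt2 lie above and those of Ppp1r3b, Mug2, Ttr, Apoa1, Pecam1 and Cdh5 below all NP points, while Mt1 overlaps.

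In sugar metabolism the medians of the lists were near 0. Among 11 glycogen genes 1 had dpc8 values above and 2 below without overlap, and among 16 genes of glycolysis and gluconeogenesis 0 and 2, beside 4.003% and 6.10% of all genes. Ppp1r3b (ENSMUSG00000046794.9, chromosome 8, 35375739 to 35388139), which directs a phosphatase to glycogen and favours its synthesis, had 108, 87.6 and 102 FPKM in NP and 50.7, 32.4 and 45.6 in dpc8 libraries, a log2 fold change of -1.21 ± 0.49 (SE, limma adjusted p = 0.936). Gyg, the glycogenin that primes glycogen, lay higher, at 5.18, 11.1 and 5.27 in dpc8 against 3.34, 2.84 and 1.78 in NP libraries. Phka2, a subunit of phosphorylase kinase, had 13.5, 14.3 and 16.6 and 10.9, 8.66 and 11.5. The median was 0.14 over 16 genes of glycolysis and gluconeogenesis and -0.07 over 11 glycogen genes, or 0.15 and 0.13 without dpc8 replicate 2, and 0 genes of either passed the adjusted test.

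The lists of lipid metabolism had medians near 0 with all libraries and higher ones without dpc8 replicate 2. Over 17 lipogenesis genes the median was 0.07 and became 0.32, with 14 of 17 above 0. Over 20 cholesterol genes it was -0.05 and turned to 0.29, with 15 above 0, over 21 genes of fatty acid oxidation -0.02 turned to 0.11, and over 17 bile acid genes 0.05 became 0.29. With all libraries, fatty acid oxidation had 1 gene with dpc8 above and 2 with dpc8 below without overlap, where 4.003% and 6.10% of all genes tested did, and the other lists had 0. Without that library 4 lipogenesis, 5 cholesterol, 2 fatty acid oxidation and 3 bile acid genes had dpc8 values all above the NP values, beside 8.48% of all genes. Srebf1, the lipogenic transcription factor, had 234, 217 and 114 FPKM in NP and 167, 55.2 and 90.7 in dpc8 libraries, overlapping in dpc8 replicate 1. Scd1, the desaturase of stearoyl-CoA, had 2004, 1700.3 and 732 and 868, 587 and 1386. Acadm and Cpt2, of mitochondrial fatty acid oxidation, had non-overlapping groups with dpc8 below, at 261, 268 and 326 against 468, 357 and 388 and at 90.3, 72.9 and 80.6 against 99.7, 95.6 and 126. Hsd3b7, of bile acid synthesis, read 176, 389 and 242 in NP and 88.6, 125 and 290.0 in dpc8 libraries.

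Genes of drug metabolism had positive fold changes more often than negative ones. Among 27 conjugation genes 20 had a fold change above 0, while 48.1% of all genes tested did. The median was 0.13, and without dpc8 replicate 2 these became 25 and 0.47. Gstm2, a glutathione S-transferase, had 30.2, 27.7 and 22.4 FPKM in NP and 48.9, 39.6 and 78.7 in dpc8 libraries, a log2 fold change of 0.98 ± 0.34 and no overlap. It was the 1 of the 27 with dpc8 above without overlap, beside 4.003% of all genes. Gsta1 had 0.648, 1.06 and 0 and 0.625, 2.91 and 17.7, and Gstm3 27.2, 15.8 and 6.11 and 18.4, 23.2 and 116, in both cases with dpc8 replicate 3 far above the other 5 libraries. Cyp2c55 showed the same library on top, with 1.39, 1.32 and 0 in NP and 1.13, 4.37 and 13.8 in dpc8 libraries. The 25 cytochrome P450 genes had a median of 0.21, or 0.28 without dpc8 replicate 2. Over 14 antioxidant genes the median was 0.09, with 8 above 0 and 6 below. Of these, 1 had dpc8 values below without overlap, beside 6.10% of all genes. That gene, Gclc, makes the precursor of glutathione. It had 95.3, 159.9 and 111 in NP and 41.5, 57.8 and 95.1 in dpc8 libraries, apart by a narrow margin in dpc8 replicate 3.

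Among the genes that the rule names, several plasma protein genes of the hepatocyte had lower values at dpc8. In the lists of 21 acute phase and 25 complement and coagulation genes, 0 had dpc8 values below without overlap, beside 6.10% of all genes. Mug2 (ENSMUSG00000030131.8, chromosome 6, 122006761 to 122085965) and Mug1 (ENSMUSG00000059908.9, chromosome 6, 121838541 to 121889057), which encode murinoglobulins, circulating protease inhibitors of rodents, were among the largest differences downward. Mug2 had 171, 209 and 226 FPKM in NP and 78.8, 49.1 and 81.5 in dpc8 libraries, a log2 fold change of -1.54 ± 0.37 (limma adjusted p = 0.676), and Mug1 had 386, 642 and 880.2 and 217, 155 and 285, a log2 fold change of -1.498 ± 0.54. As close paralogs they may share reads. Mug2 passed the test with array weights (adjusted p = 0.0315) and without the libraries with Y-linked signal (0.0259). Ttr, the carrier of thyroxine and retinol, had 3368, 3721 and 3923 and 1722, 1235 and 2444, and Apoa1, the main protein of HDL, had 4724, 4384 and 5145 and 1684, 1734 and 3107. Both kept their groups apart, and so did Ahsg, the serum protein fetuin-A, with 7872, 7714 and 10349 and 6313, 4269 and 6571.

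All 11 tested hepatocyte markers had fold changes below 0, with a median of -0.47, and 3 had non-overlapping groups, while 51.9% of all genes were below 0 and 6.10% had dpc8 values below without overlap. Without dpc8 replicate 2, in which hepatocyte genes were lowest, the median was -0.19, and again 11 of 11 were below 0. Over 21 acute phase genes the median was -0.12 and turned to 0.21 without that library, with 17 above 0. Over 25 complement and coagulation genes -0.15 turned to 0.12, with 20 above 0. The 26 genes of amino acid breakdown and the urea cycle had a median of -0.43, or -0.10 without it. Among their members, Aass, of lysine breakdown, had 126, 124 and 202 and 129.9, 69.7 and 122, and Nags, which makes the activator of the urea cycle, had 31.2, 42.3 and 33.3 and 27.5, 16.8 and 30.2, where the groups did not overlap.

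Markers of the zones had medians below 0 with all libraries. The median fold change was -0.36 over 13 periportal, -0.40 over 12 pericentral and -0.25 over 7 midlobular genes, and 0 of them passed the adjusted test. Without dpc8 replicate 2 the medians were -0.13, -0.33 and 0.01, so that the sign of the midlobular list turned, and 6 periportal, 5 pericentral and 4 midlobular genes lay above 0. Glul, the glutamine synthetase of the cells around the central vein, had 184, 139.7 and 110.5 FPKM in NP and 141, 64.6 and 42.2 in dpc8 libraries, a log2 fold change of -0.95 ± 0.43, with dpc8 replicate 1 inside the NP range. The fold change of Glul was -0.56 without dpc8 replicate 3 and -1.42 without dpc8 replicate 1. Lgr5, a Wnt target of the same cells, had 1.42, 3.36 and 2.74 and 1.034, 0.516 and 0.234, with all dpc8 values below. Cyp1a2, another pericentral gene, had 260.5, 226 and 253 and 198, 305 and 507, Tbx3 had 9.28, 23.3 and 8.09 and 7.49, 11.6 and 10.7, and Axin2, a target and inhibitor of Wnt signalling, had 2.11, 9.98 and 2.69 and 6.72, 1.04 and 2.76. Cyp17a1, a steroid hydroxylase of the portal side, had 79.7, 46.0 and 82.0 and 73.9, 63.4 and 128, Ass1 of the urea cycle had 1935, 1890.0 and 1383 and 1832, 727 and 1334, and the groups of these 5 genes overlapped. Igfbp2, of the midlobular list, had 403, 438 and 438 in NP and 184, 437 and 280.5 in dpc8 libraries.

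Markers of the sinusoidal endothelium had lower means at dpc8 throughout. All 13 tested had fold changes below 0, with a median of -0.47, and of -0.23 with 13 of 13 below 0 without dpc8 replicate 2, while 51.9% of all genes tested were below 0. Pecam1 (ENSMUSG00000020717.19, chromosome 11, 106654217 to 106750628), a junction protein of endothelium, had 13.1, 9.92 and 14.4 FPKM in NP and 7.78, 3.68 and 4.06 in dpc8 libraries, a log2 fold change of -1.17 ± 0.40 (limma adjusted p = 0.874). Cdh5, the VE-cadherin, had 20.9, 16.1 and 18.9 and 15.6, 7.81 and 10.5, and Oit3 had 21.0, 16.6 and 14.3 and 12.1, 7.64 and 8.78. These 3 of the 13 had non-overlapping groups, beside 6.10% of all genes with dpc8 below. Stab2, the scavenger receptor that clears hyaluronan, had 32.2, 38.4 and 21.1 and 24.1, 10.95 and 11.9, where dpc8 replicate 1 lay within the NP range.

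Stellate cell genes also had fold changes mostly below 0. Of 10 tested, 9 had fold changes below 0, with a median of -0.48, or -0.45 without dpc8 replicate 2, and 4 had non-overlapping groups with dpc8 below, as 6.10% of all genes did. Reln, a secreted matrix protein that these cells make, had 33.3, 19.2 and 20.6 FPKM in NP and 15.6, 10.6 and 14.5 in dpc8 libraries, and Colec11, a lectin of the complement system, had 43.5, 27.4 and 28.1 and 19.5, 12.9 and 24.8. Lrat, which stores vitamin A as ester, had 9.69, 6.30 and 9.18 and 4.51, 3.51 and 7.36, and Ngfr, a neurotrophin receptor, 1.54, 2.87 and 3.40 and 0.696, 0.934 and 1.86, both overlapping in dpc8 replicate 3. None of these genes passed the adjusted test, in which 1 of 11292 genes did, with 589 at an unadjusted p under 0.05.

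Of 12 Kupffer cell and macrophage genes, 10 had fold changes below 0, while 51.9% of all genes tested did. The median was -0.38, or -0.16 without dpc8 replicate 2. Clec4f, a lectin of Kupffer cells, had 97.5, 75.7 and 121 FPKM in NP and 70.5, 43.1 and 73.8 in dpc8 libraries, and C1qa, of complement, had 67.9, 59.1 and 87.7 and 55.6, 33.7 and 55.4. These were the 2 of the 12 whose groups did not overlap, beside 6.10% of all genes with dpc8 below. Cd68 and Csf1r overlapped, at 11.8, 12.3 and 14.0 against 11.9, 5.85 and 11.05 and at 43.2, 33.5 and 70.8 against 48.0, 21.6 and 33.2. The 12 largest differences downward include Lcp2 and Bin2. Lcp2 (ENSMUSG00000002699.13, chromosome 11, 34046920 to 34092295), an adaptor of T cell receptor signalling, had 17.2, 62.3 and 43.2 in NP and 5.56, 3.34 and 5.41 in dpc8 libraries, a log2 fold change of -2.71 ± 0.91. Bin2 had 4.65, 4.87 and 32.2 and 1.63, 1.58 and 2.62, and Btk, the kinase of B cell receptor signalling, named for its zone contrast, 2.67, 1.002 and 7.15 and 0.58, 0.587 and 0.779. The neutrophil genes S100a9 and S100a8 had 2.19, 1.026 and 11.9 and 2.19, 2.02 and 11.1 in NP and 0, 0.594 and 0 and 0, 1.66 and 0.688 in dpc8 libraries. Btk and S100a9 passed the filter on low values through the NP libraries alone, which favours a lower value at dpc8. NP replicate 3 was the highest of the 6 libraries for Bin2, Btk, S100a9 and S100a8, and its summed neutrophil and lymphocyte markers were 26.1 and 20.1 FPKM against 0 to 4.44 and 6.85 to 10.4 in the other 5. Without that library the log2 fold changes of Bin2 and Btk went from -1.83 to -0.99 and from -1.25 to -0.72.

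Other lists checked for stray tissue were mostly at or near 0. Of the adipocyte genes 0 of 7 were tested, of acinar pancreas 1 of 7 (Cela1, 14.1, 32.3 and 16.6 and 45.7, 9.89 and 21.2), of keratinocyte and surface epithelium 1 of 9 (Krt10, 2.28, 3.23 and 0 and 1.27, 0.623 and 1.10) and of skeletal muscle 2 of 9, Acta1 with 1.05, 0 and 0 and 2.18, 11.1 and 0.039 and Mylpf with 5.503, 5.002 and 3.27 and 10.97, 0.933 and 4.61. None of these 4 genes had non-overlapping groups. The biliary genes tested were Spp1, at 10.6, 2.06 and 115 in NP and 9.75, 57.3 and 3.05 in dpc8 libraries, and Sox9, at 0.778, 2.46 and 1.24 and 0.594, 1.14 and 0.623. The lymphocyte list was reduced to Ptprc, with 5.88, 5.89 and 16.3 and 4.45, 4.49 and 5.73. The 5 erythroid genes tested had a median of -0.30, which turned to 0.02 without NP replicate 3 and to 0.30 with the muscle and matrix covariate, and overlapping groups, among them Alas2 with 6.10, 6.74 and 10.5 and 8.33, 3.40 and 6.10.

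Smooth muscle and matrix genes had high medians that fell when dpc8 replicate 2 was left out. Their mean log2 level in dpc8 replicate 1, 3.91, was also above the 2.34 to 3.28 of NP. In dpc8 replicate 3 it was 2.05. Over 12 smooth muscle genes the median log2 fold change was 1.82 with dpc8 replicate 2 and 0.26 without it, and over 15 fibroblast and matrix genes 1.05 and 0.13. In 0 genes of either list were the 3 dpc8 values above the NP values, beside 4.003% of all genes. Cnn1, a contractile protein of smooth muscle, had 1.82, 0.143 and 0 FPKM in NP and 9.75, 147 and 0 in dpc8 libraries, and Myl9 6.40, 1.98 and 1.53 and 19.8, 229 and 1.05. Col1a2, of type I collagen, had 20.2, 2.48 and 5.48 and 39.2, 371 and 2.05, and Mgp 1.503, 0 and 0 and 11.4, 79.8 and 0. Dcn, a proteoglycan that stellate cells also make, had the opposite sign, with 106, 76.8 and 99.9 in NP and 62.7, 46.2 and 67.5 in dpc8 libraries and no overlap.

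**Figure D4:**
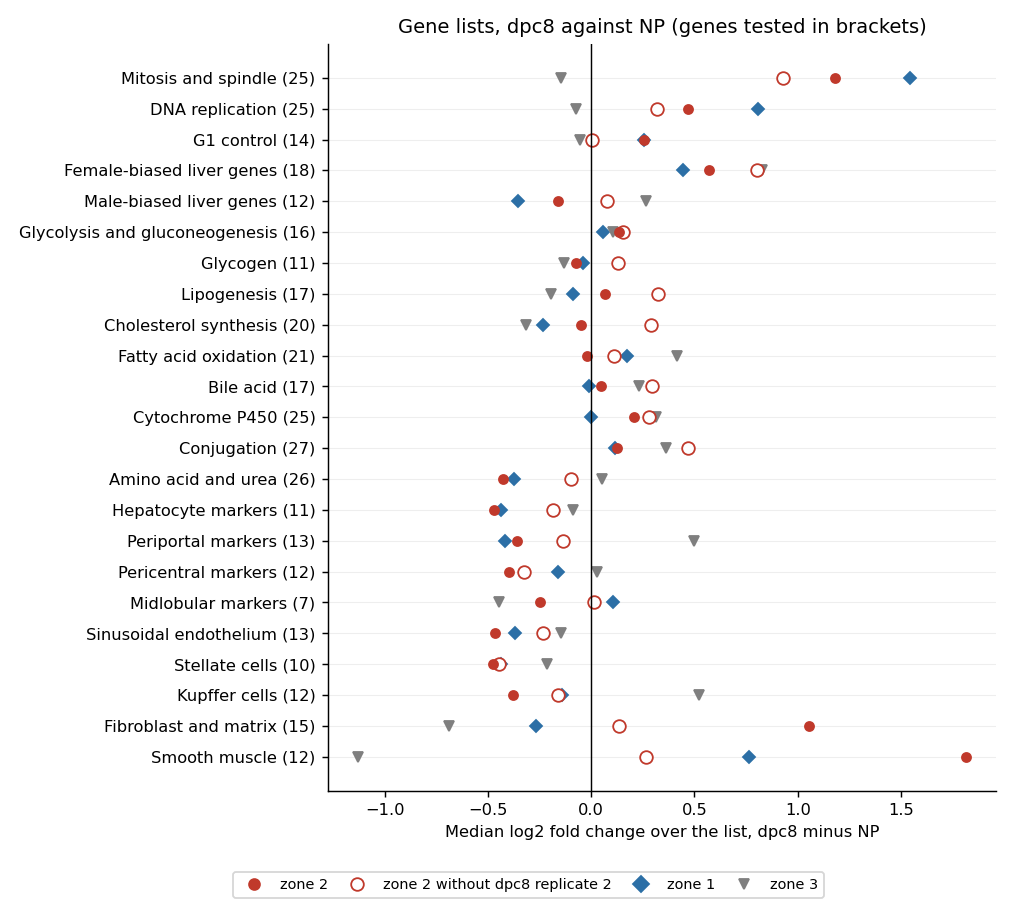
Median log2 fold change of each gene list, dpc8 minus NP (x axis), in zone 2 with all libraries (filled red), in zone 2 without dpc8 replicate 2 (open red), in zone 1 (blue diamonds) and in zone 3 (grey triangles). The mitosis list lies at 1.181 in zone 2, 1.54 in zone 1 and -0.14 in zone 3, and the smooth muscle list moves from 1.82 to 0.26 when dpc8 replicate 2 is left out. The medians of zones 1 and 3 include the libraries with Y-linked signal.

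Several medians moved when NP replicate 3 was left out or the muscle and matrix covariate was fitted, both of which were added for the lists after seeing the data. Without NP replicate 3 the median was -0.19 for Kupffer cells, -0.15 for interferon genes, -0.01 for the secretory pathway, -0.28 for glucocorticoid targets, -0.24 for lipogenesis and 0.12 for male-biased genes. With the covariate it was 0.17 for DNA replication, -0.18 for G1 control, -0.05 for hepatocyte markers (6 of 11 below 0), -0.12 for amino acids and urea and -0.13 for Kupffer cells. The lists of sinusoidal endothelium and stellate cells had -0.28 (13 of 13 below 0) and -0.35 with it, and female-biased and conjugation genes had 0.87 and 0.46 (27 of 27 above 0). Cytochrome P450 genes had 0.40 (19 of 25 above 0), fatty acid oxidation 0.30 and bile acid genes 0.38 with it. Acute phase genes had 0.30 and complement and coagulation genes 0.22.

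Genes of the circadian clock differed widely between libraries of one group. The clock output gene Dbp had 77.7, 0.727 and 1.04 FPKM in NP and 67.8, 17.8 and 24.2 in dpc8 libraries, and Arntl, which peaks at the opposite phase, had 0.804, 16.9 and 19.7 and 0.72, 4.86 and 5.64. NP replicate 1 and dpc8 replicate 1 shared high Dbp and low Arntl, which was picked out after its values were seen. Nr1d2, a repressor of the clock, had 35.2, 10.5 and 2.79 and 39.4, 21.5 and 26.95, and Cry1 11.5, 13.7 and 10.4 and 21.1, 2.70 and 1.82. The hour of sampling is not in the labels, and its part in any difference was not tested. The median over 16 clock genes was 0.05, or 0.09 without dpc8 replicate 2. Over 16 immediate early genes it was 0.41 and turned to -0.25 without dpc8 replicate 2, in which Ccn1 was at 209.8 FPKM against 5.09 to 11.8 in the other 5 libraries; Ccn1 was picked out after its values were seen.

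Of 15 interferon genes, 14 had fold changes below 0, while 51.9% of all genes tested did. The median was -0.42, or -0.26 without dpc8 replicate 2. In 3 of them the dpc8 values lay below without overlap, beside 6.10% of all genes. Ifit3, an antiviral protein that interferon induces, had 6.11, 9.09 and 11.3 FPKM in NP and 5.86, 4.24 and 5.17 in dpc8 libraries, without overlap. Of 19 genes of the secretory pathway and the unfolded protein response, 16 lay below 0, with a median of -0.32, or -0.12 without that library, and 10 lay below 0 without NP replicate 3. Creld2 and Hyou1, induced by stress of the endoplasmic reticulum, had 14.3, 36.6 and 69.7 and 59.5, 127 and 113 in NP and 15.7, 9.45 and 16.1 and 63.7, 40.8 and 57.6 in dpc8 libraries, in both cases with NP replicate 1 within the dpc8 range. Without NP replicate 3 the log2 fold change of Creld2 went from -1.26 to -0.74.

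The remaining largest differences were single genes. Ly6d (ENSMUSG00000034634.7, chromosome 15, 74762056 to 74763620), a GPI-anchored surface protein, had 0, 0.353 and 0 FPKM in NP and 7.35, 10.5 and 10.6 in dpc8 libraries, a log2 fold change of 3.23 ± 0.99 (limma adjusted p = 0.758), with 3.08 in zone 1 and 2.12 in zone 3. Akr1b7, an aldo-keto reductase, had 1.16, 1.24 and 0 and 2.9996, 6.67 and 9.16, and Ces2c, a carboxylesterase, 4.59, 3.86 and 0 and 5.83, 13.2 and 27.3. Zdhhc2, a palmitoyltransferase, had 0.139, 0.933 and 0 and 9.03, 4.02 and 4.09, and Ssbp4 3.97, 4.98 and 0.062 and 25.6, 12.3 and 8.998. Downward, St6galnac3, a sialyltransferase, had 5.08, 2.80 and 4.69 in NP and 0, 0.363 and 1.46 in dpc8 libraries, and Bmf, a promoter of apoptosis, 14.2, 8.68 and 5.91 and 1.94, 1.89 and 3.41. Recql5, a DNA helicase, had 4.74, 14.7 and 15.9 and 2.70, 3.14 and 2.65, Map4k2 8.72, 15.3 and 28.3 and 4.96, 5.80 and 3.47, Phospho1 3.60, 12.1 and 13.1 and 1.58, 1.40 and 3.58, and Zmynd15 2.04, 4.30 and 8.78 and 0.793, 0.267 and 1.44. Ly6d and Zdhhc2 passed the filter through the dpc8 libraries alone, which favours a higher value at dpc8. Without NP replicate 3 the log2 fold change of Akr1b7 went from 2.004 to 1.63, that of Ces2c from 2.22 to 1.43 and that of Ssbp4 from 2.27 to 1.48. In all of these the 3 dpc8 values lay on one side of the NP values, as the rule that named them requires.

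Zone 2 lies between 2 zones with their own dpc8 and NP libraries, so the difference of the dpc8 change between zones was tested in the same fit. The labels do not tell whether libraries of the same number in different zones came from the same mouse, and the fit takes all libraries as independent, so the errors of these contrasts leave out any mouse that zones share. No gene passed: 0 of 11292 for zone 2 against zone 1 and 0 for zone 2 against zone 3 (0%), with 242 (2.14%) and 320 (2.83%) at an unadjusted p under 0.05. The dpc8 change of the mitosis list had a median of 1.181 in zone 2, 1.54 in zone 1 and -0.14 in zone 3. Gene by gene, its zone 2 change exceeded that of zone 3 by a median of 1.36, where the median over all genes tested was -0.02, and differed from that of zone 1 by a median of -0.43 against -0.02. The same order held for DNA replication, at 0.47, 0.81 and -0.07. Zone 1 has the Y-linked signal in NP replicate 1 and dpc8 replicate 1 and zone 3 in NP replicate 2, so these zone medians carry it too. In zone 3 the mitosis sums were 38.6, 136 and 16.3 FPKM in NP and 80.9, 41.6 and 15.5 in dpc8 libraries. The highest is the NP library with that signal, and a high NP value lowers the zone 3 change. In zone 2 the signal lies in dpc8 replicate 2, and without that library the mitosis median was 0.93.

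Hmmr, one of the genes the study names, passed the filter through the dpc8 libraries of zone 2 alone, which favours a zone 2 difference. In zone 1 it had 1.21, 0.837 and 0.409 FPKM in NP and 7.81, 3.26 and 5.86 in dpc8 libraries, and in zone 3 0.235, 1.52 and 0.202 and 2.03, 0.491 and 0.121. The zone 2 change exceeded that of zone 3 by 1.34 ± 0.68 (SE, limma adjusted p = 0.998), and differed from that of zone 1 by -0.34 ± 0.68 (adjusted p = 0.99997). A1bg had a positive log2 fold change in all 3 zones, of 3.46, 2.97 and 5.06 in zones 1, 2 and 3. It passed the adjusted test in zone 1 (limma adjusted p = 0.0272), where 2 genes were higher (0.0177%) and 1 lower (0.00886%), and in zone 3 (adjusted p = 0.000137), where 2 were higher (0.0177%) and 0 lower (0%). Cyp2b13 was the gene lower in zone 1 (adjusted p = 0.0468). The zone 2 change of A1bg differed from that of zone 3 by -2.096 ± 0.81 (adjusted p = 0.998). Mt2 had 1.17 in zone 1 and 2.63 in zone 3.

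**Figure D5:**
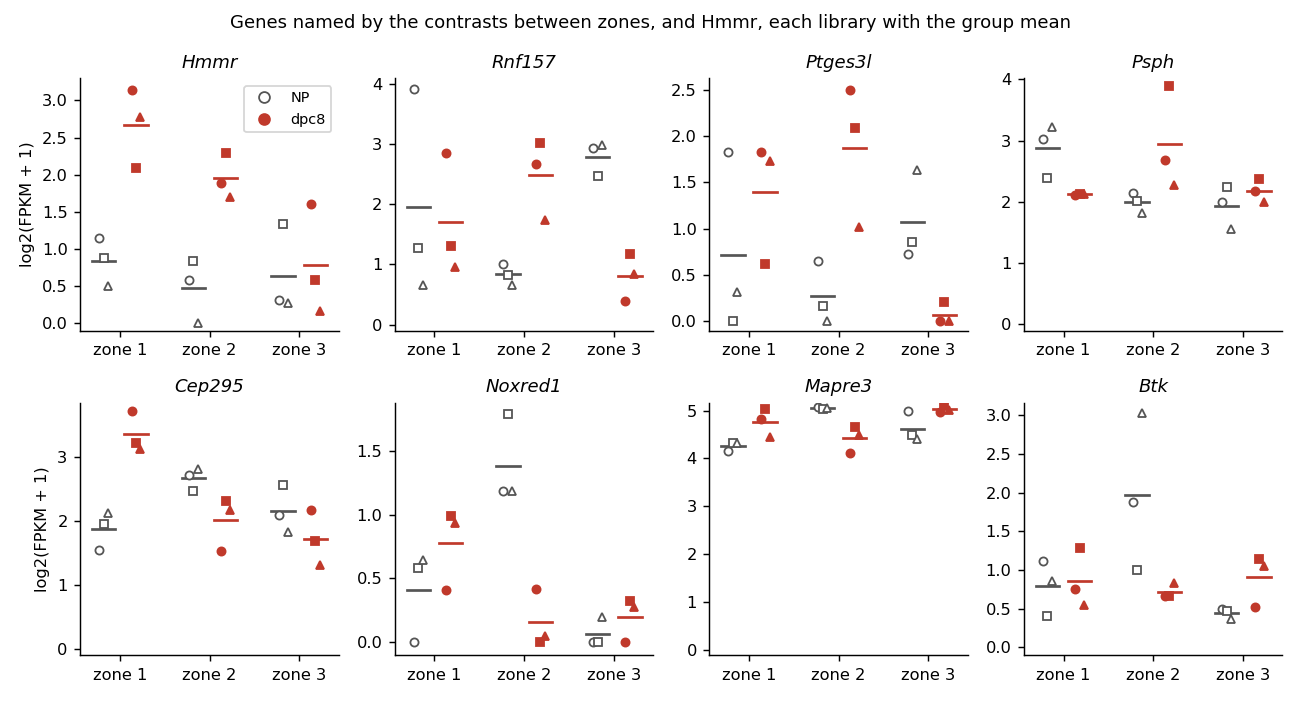
Level of 8 genes as log2(FPKM + 1) (y axis) in the 3 NP (open grey) and 3 dpc8 (filled red) libraries of zones 1, 2 and 3, with bars at the group means. In zone 2 the groups do not overlap in any of the 8, with Hmmr, Rnf157, Ptges3l and Psph higher and Cep295, Noxred1, Mapre3 and Btk lower at dpc8.

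The smallest p-values of the zone contrasts, among genes whose zone 2 groups do not overlap, came from genes of varied kinds. That condition and the contrast use the same zone 2 values, so the choice favours large differences. Cep295, a centriole protein, had 5.55, 4.53 and 6.03 FPKM in NP and 1.89, 3.97 and 3.51 in dpc8 libraries of zone 2 but 1.90, 2.86 and 3.35 and 12.2, 8.28 and 7.67 in zone 1, a difference of -2.14 ± 0.47 (limma adjusted p = 0.99997). Noxred1, which passed the filter through the NP libraries alone, so that the filter favours a lower zone 2 change, had 1.27, 2.45 and 1.27 and 0.335, 0 and 0.034 in zone 2, and its change differed from zone 1 by -1.598 ± 0.40 and from zone 3 by -1.36 ± 0.40. Mapre3, which binds microtubule ends, had 32.8, 31.5 and 32.3 and 16.2, 24.3 and 21.5, with differences of -1.13 ± 0.29 from zone 1 and -1.04 ± 0.29 from zone 3. Btk, with the same limit, differed from zone 3 by -1.71 ± 0.51.

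On the other side, Psph, the last enzyme of serine synthesis, had 3.43, 3.05 and 2.54 FPKM in NP and 5.44, 13.9 and 3.82 in dpc8 libraries of zone 2. Its change exceeded that of zone 1, which was -0.75, by 1.71 ± 0.48. Toe1 and Acp1 had 5.85, 4.10 and 1.29 and 20.7, 23.7 and 9.62 in NP and 7.51, 6.47 and 7.25 and 30.9, 24.7 and 52.6 in dpc8 libraries. Their changes exceeded those of zone 1, which were -0.795 and -0.57, by 1.70 ± 0.49 and 1.56 ± 0.49. Rnf157 had 1.02, 0.77 and 0.58 and 5.39, 7.12 and 2.34, Ptges3l 0.568, 0.123 and 0 and 4.64, 3.24 and 1.0302, and 4921524J17Rik 4.28, 2.33 and 2.50 and 5.85, 12.2 and 4.57. Their changes exceeded those of zone 3 by 3.64 ± 0.95, 2.60 ± 0.64 and 2.50 ± 0.56. The zone 3 changes were -1.99, -1.0005 and -1.49. In all of these genes, part of the difference is thus a lower level at dpc8 in the other zone. Ptges3l passed the filter through the dpc8 libraries of zone 2 alone, which favours a higher zone 2 change. All of these had limma adjusted p-values over 0.05.

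Zone 2 at 16 dpc, set against the same NP libraries, gives the later values of these genes. Because the NP libraries are shared, NP replicate 3 among them, the values stand side by side only. Kif11 was at 0.092, 0.145 and 2.28 FPKM in dpc16 replicates 1 to 3, Hmmr at 0.115, 0.351 and 2.48 and Ckap2l at 0, 0.062 and 2.53, where replicates 1 and 2 were within or below the NP range. Replicate 3 of dpc16 holds a Y-linked sum of 23.2 FPKM and a smooth muscle sum of 6408, and it was the highest of the 3 for all 3 genes. A1bg was at 1483, 1389 and 451, Mt2 at 2142, 2594 and 696 and Mug2 at 59.3, 52.1 and 20.7 FPKM in the same libraries. The log2 fold changes over NP at dpc8 and dpc16 were 2.97 and 1.67 for A1bg, 2.95 and 3.17 for Mt2 and -1.54 and -2.29 for Mug2. At dpc16, where 334 genes passed the adjusted test in either direction (2.96%), Mt2 (limma adjusted p = 0.0216) and Mug2 (0.000854) passed and A1bg (0.122) did not. The mitosis list had medians of 1.181 and 0.08.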

How the data were processed

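Areas of each zone were laser-microdissected from wild-type female C57BL/6 mice (C57BL/6N in the study's methods), and ribosomal RNA was depleted before single-end sequencing. The authors trimmed reads with cutadapt, aligned them to mm10 with HISAT2 2.1.0, and deposited FPKM per protein-coding GENCODE gene from Cuffdiff of Cufflinks 2.2.1, using uniquely mapped reads. FPKM are not counts, so no count test was run.

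From these values, log2(FPKM + 1) was fitted with limma 3.58.1 (R 4.3.3) over all 27 libraries with 1 mean for each of the 9 groups of stage and zone, with an intensity trend and robust estimation. Two-sided tests had Benjamini-Hochberg adjustment over the 11292 genes, at a threshold of 0.05. The filter asked for an FPKM of at least 1 in 3 of 6 libraries. Of the genes at its edge, 437 reached 1 in exactly 3 libraries and 518 in exactly 2, and the third-highest FPKM was 1.00022 just inside and 0.998296 just outside. There were 34 genes that passed through dpc8 libraries alone and 13 through NP libraries alone. Tested on simulated data for dpc8 against NP in zone 2 over 11292 genes, the fit called 77 of 104 genes changed by 2 on the log2 scale, 25 of 96 changed by 1 and 9 of 11092 unchanged ones. These shares need not hold for the real libraries, where dpc8 replicate 2 and NP replicate 3 stand apart.

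Library depth was estimated from the lowest FPKM per gene, which are multiples of the value of 1 read, and 93.2 to 97.7% of low values came out whole within 0.1. Depth limits low genes, and the estimates cover counting error only. Gene positions are from GENCODE vM21 on GRCm38 (mm10).

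Members and the 41 gene lists (596 genes) were chosen with earlier results of these data known. Genes are named by a fixed rule: the 12 largest fold changes in each direction among genes of unadjusted p under 0.05 with non-overlapping groups, every gene past the adjusted threshold, the 4 members of each list with the smallest p, the 3 genes per direction of each zone contrast with the smallest p among non-overlapping genes, and the markers that the study names. The gene past the adjusted threshold and some others that the rule names are not reported here, and further ones are given only within the counts of their list. Alternatives tried were fits of only the libraries compared, the replicate number as a block, a pseudocount of 0.1, other filters, quantile normalization, array weights, leaving out libraries and a muscle and matrix covariate.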

Additional observations from a re-analysis of the deposited data

Results flagged for a closer look

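In the library labelled dpc8 zone 2 replicate 2, the 4 Y-linked genes, none of which entered the test, summed to 16.1 FPKM. The NP zone 2 libraries, taken as controls, had 1.28, 0.158 and 2.24. It was singled out because this is a signal outside the genes tested and above the control level in a library labelled female. Of the 27 libraries, 6 exceeded 5 FPKM. Among the 6 zone 2 libraries of NP and dpc8, dpc8 replicate 2 had the highest smooth muscle and matrix sums.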

How the results depend on the processing

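The count of 1 gene past the adjusted threshold of limma became 0 when the 6 zone 2 libraries of NP and dpc8 were fitted alone (494 at an unadjusted p under 0.05). It became 2 with quantile normalization, 6 with array weights (4 higher, 2 lower), 5 when the Y-positive libraries were left out (4 higher, 1 lower) and 3 with the muscle and matrix covariate. A pseudocount of 0.1, no filter on low values, a filter over all 27 libraries and leaving out each replicate in turn each gave 1. A1bg passed in 4 of these fits, and Eci3, picked out after its values were seen, in 2. Mug2 passed with array weights and without the Y-positive libraries, Cyp3a44 (adjusted p = 0.0315) and Noxred1 (0.0315) with array weights, and Zdhhc2 (0.0259) without the Y-positive libraries. No gene passed in either zone contrast in any of the 15 alternatives, the first of which then held the 12 libraries of both zones.

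The replicate numbers gave no clear sign of pairing. Same-numbered NP and dpc8 libraries had correlations of deviations of 0.150, −0.195 and −0.0612, and differently numbered ones −0.174 to 0.274. So few pairs cannot tell whether libraries of the same number shared a batch or an hour of sampling. With the replicate block the count was 1, with 608 genes at an unadjusted p under 0.05.

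Some log2 fold changes named in the report, none past the threshold, changed sign. Without the Y-positive libraries Axin2 stood at 0.10 and Mylpf at 0.57. With array weights Mylpf stood at 0.14 and Spp1 at 0.46, with the covariate Acta1 stood at −0.22 and Mylpf at 0.10, and with the pseudocount of 0.1 Krt10 stood at 0.20. Leaving out 1 replicate at a time gave Axin2 from −0.86 to 0.20, Cela1 from −0.41 to 0.64, Cyp1a2 from −0.0014 to 0.67, Krt10 from −0.91 to 0.13, Mylpf from −0.74 to 0.57, Rb1 from −1.28 to 0.067, Spp1 from −1.43 to 1.19 and Tbx3 from −0.55 to 0.16. The causes were not tested. Without dpc8 replicate 2, chosen after seeing the data, groups did not overlap in 958 genes higher and 1203 lower, and without NP replicate 3 in 952 and 1157. With 3 libraries a group, and FPKM in place of counts, low genes carry the widest error.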
